A study of Drosophila melanogaster with 4 samples.

Results

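Some stretches of the Drosophila melanogaster genome gave Su(Hw) ChIP-seq regions much wider than the usual ones, and these wide regions on the autosomal arms 2L, 3L and 3R are described here. They were chosen by their width in the authors' combined list: enriched regions of 3500 bp or more, with midpoints outside the 2 Mb next to the centromere and outside 3R 2.48 to 2.83 Mb and 12.475 to 12.81 Mb. The rule took 375 regions, out of 3388 enriched regions in the same stretches and 5892 in the whole list. Of all 5892 regions, 10.9% were at least this wide, a share that the rule itself uses. Because width chose the members, and the combined list holds both libraries, every value below is a description and none is a test. Positions are those of FlyBase release 5, as the files give them.

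The material was wild-type Oregon-R embryos aged 14 to 16 h. The series held 2 ChIP samples made with a single antibody to Su(Hw) and 2 input DNA samples. Inputs carry the same replicate numbers as the ChIP libraries. All samples share strain, genotype and stage, so the data hold no mutant or other stage to set against them. Whole embryos were used, so a region averages over all cell types of the embryo. Whether the ChIP libraries stem from separate collections of embryos is not stated in the labels, so their differences can be technical. No read counts were used here and the depth behind each region is unknown. The score is the authors' enrichment of a region on a log2 scale, with a zero point that the sources used here do not give.

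Su(Hw), Suppressor of Hairy-wing, is a DNA-binding protein with an array of zinc fingers. It binds the insulator of the gypsy retrotransposon, where it acts together with the proteins Mod(mdg4) and CP190 to block enhancers from reaching promoters. That insulator carries a cluster of Su(Hw) sites, whereas many of the protein's other genomic sites are single copies of its motif. A wide ChIP-seq region can hold several neighbouring sites that the sonicated fragments do not resolve. A count of the replicate regions inside it shows how each replicate list divided the stretch, and is not a count of sites. The motif and the genes in these regions were not analysed here, since no sequence or annotation of release 5 was used.

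Wide regions had a median width of 4197 bp (quartiles 3786 and 4927 bp, from 3501 to 13237 bp). The narrower regions of the same stretches had a median of 2185 bp (1889 and 2507 bp, n = 3013). Together the wide regions covered 1716641 bp, or 20.7% of all sequence under listed regions there, while making up 11.1% of the regions (95% exact interval 10.0% to 12.2%). Just inside the limit lay 3R 10382716 to 10386216 (3501 bp, combined score 2.08), 2L 3760932 to 3764436 (3505 bp, 2.42) and 3R 15788650 to 15792154 (3505 bp, 1.50). Just outside it lay 2L 14031476 to 14034974 (3499 bp, 2.29), 3L 8790682 to 8794180 (3499 bp, 2.90) and 2L 7418928 to 7422422 (3495 bp, 1.67). All 6 of these were listed as 1 region in each replicate, so the limit cuts through a continuous range of widths.

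Most wide regions overlapped a single region in each replicate list, though that region was not always wide itself. Of the 375, 320 (85.3%, 95% exact interval 81.3% to 88.8%) overlapped exactly 1 region of replicate 1 and 1 of replicate 2. In 188 of these 320 the replicate region reached 3500 bp in both lists. A replicate region was counted inside where it overlapped by at least 1 bp. At least 1 of the replicates listed 2 or more regions in 54 (14.4%), against 10 of 3013 narrower regions (0.332%) and 1.78% of all combined regions. Both replicates did so in 22. The remaining region was listed in replicate 1 alone.

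Counted per library, 40 wide regions (10.7%, interval 7.73% to 14.2%) covered 2 or more regions of replicate 1, and 36 (9.60%, 6.81% to 13.0%) covered 2 or more of replicate 2. Over all 5892 combined regions the shares were 1.31% for replicate 1 and 1.04% for replicate 2. In both libraries at once, 22 wide regions (5.87%) were split, against 0 of 3013 narrower regions (interval up to 0.122%) and 0.56% of all combined regions. Because a region must be wide to hold several regions of the usual width, this excess follows partly from the rule. The replicates gave the same number for 341 wide regions (90.9%, interval 87.6% to 93.6%), and differed by 1 for the other 34. The number was also the same for 2555 of 3013 narrower regions (84.8%), of which 386 were in neither list, and for 85.2% of all combined regions.

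Splitting was rare just above the limit and common among the widest regions. From 3500 to 4000 bp, 4 of 149 regions were split in at least 1 replicate (2.68%, exact interval 0.736% to 6.73%), and from 4000 to 4500 bp 4 of 83 (4.82%). From 4500 to 5000 bp the count was 14 of 52 (26.9%, 15.6% to 41.0%), and from 5000 to 6000 bp it was 14 of 52 again. From 6000 to 8000 bp 13 of 29 were split (44.8%, 26.4% to 64.3%), and of the 10 regions of 8000 bp or more 5 were split, all 5 in both replicates. The step lay near 4500 bp, an edge of the width classes used. That is about the summed width of a pair of typical replicate regions (medians 2251 bp in replicate 1 and 2268 bp in replicate 2). A link between these widths and the step was not tested.

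**Figure D1:**
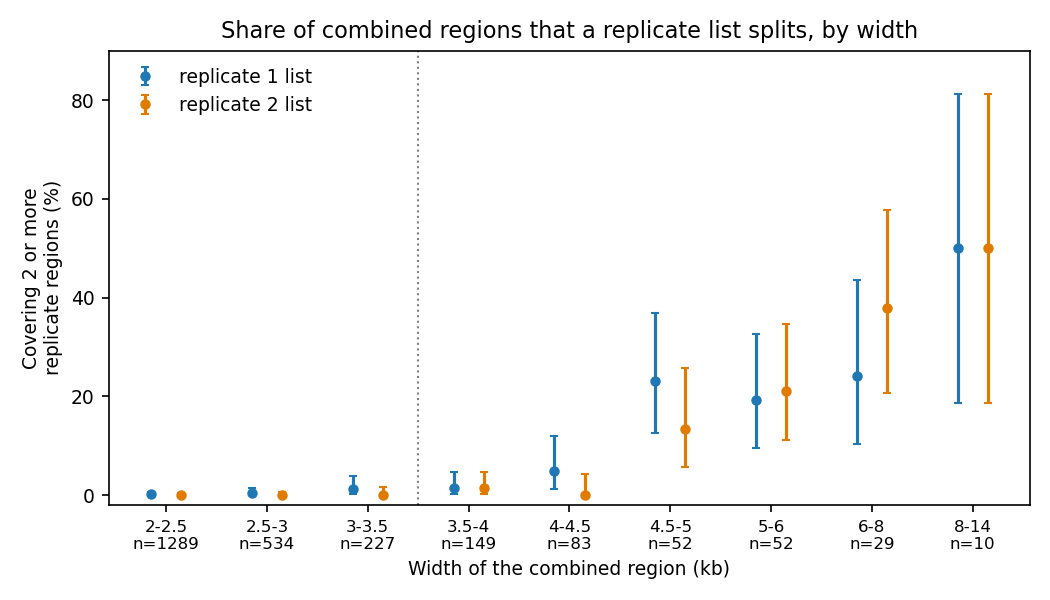
Share of combined regions (%) that cover 2 or more regions of the replicate 1 list or the replicate 2 list, by width of the combined region (kb), with 95% exact binomial intervals and the number of regions under each class; the dotted line marks the 3.5 kb limit of the rule. Shares stay below 5% up to 4.5 kb and reach 50% in both replicates at 8 to 14 kb.

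The widest region lay on 2L at 20281938 to 20295174, spanning 13237 bp with a combined score of 3.14. Replicate 1 listed a left region of 2517 bp with score 3.05 and a right region of 9938 bp with score 3.35, 731 bp apart. Replicate 2 listed 3086 bp with score 2.65 and 9830 bp with score 3.15, 312 bp apart. The right-hand regions were the widest on these stretches in both replicate lists. Even the split thus left a stretch of over 9 kb that neither list divided further.

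On 3L at 9458204 to 9468684 (10481 bp, combined score 1.16) the replicates did not list the same parts. Replicate 1 listed 3 regions there, with scores of 0.81, 0.43 and 2.25 from left to right. Replicate 2 listed 2 regions with scores of 0.89 and 1.79, leaving 1662 bp between them. That gap fell within the middle region of replicate 1 (9461216 to 9465854), which had the lowest score of the 3. It was the only wide region with 3 regions in a replicate list.

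The region on 3R at 18163280 to 18173476 (10197 bp, combined score 2.25) was split alike in both. Its left region scored 2.69 in replicate 1 and 2.62 in replicate 2, and its right region 1.70 and 1.73. The region on 3R at 25894992 to 25903826 (8835 bp, 2.37) was split by 41 bp in replicate 1 and by 12 bp in replicate 2, and its left and right parts scored 2.08 and 2.51 in replicate 1, 2.05 and 2.61 in replicate 2. Both libraries therefore placed the higher score on the left of the first region and on the right of the second.

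The region on 3R at 26304950 to 26313120 (8171 bp) had the highest combined score of the 10 widest, 3.68. Its narrow left part scored 2.14 in replicate 1 and 2.11 in replicate 2, and its right part 3.93 and 3.79. The parts lay 282 bp apart by replicate 1 and 295 bp apart by replicate 2.

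The other 5 of the 10 widest were single in both lists. On 3L, 8241294 to 8250270 spanned 8977 bp and scored 2.44 (combined), 2.46 (replicate 1) and 2.45 (replicate 2), with 99.0% of it covered by replicate 1 and 98.8% by replicate 2. On 2L, 16370428 to 16378656 spanned 8229 bp with a combined score of 2.29 and was covered at 99.4% by replicate 1 and 99.5% by replicate 2. The remaining regions lay on 3R at 21228236 to 21236638 (8403 bp, combined score 2.52) and on 3L at 962186 to 970332 (8147 bp, 2.68) and 1921234 to 1929300 (8067 bp, 3.03). At 21228236 to 21236638 both replicate regions began about 1 kb inside the combined edge, and spanned 7414 bp (replicate 1) and 7374 bp (replicate 2). Width alone did not tell split from unsplit stretches: regions of over 8 kb occurred in both forms.

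**Figure D2:**
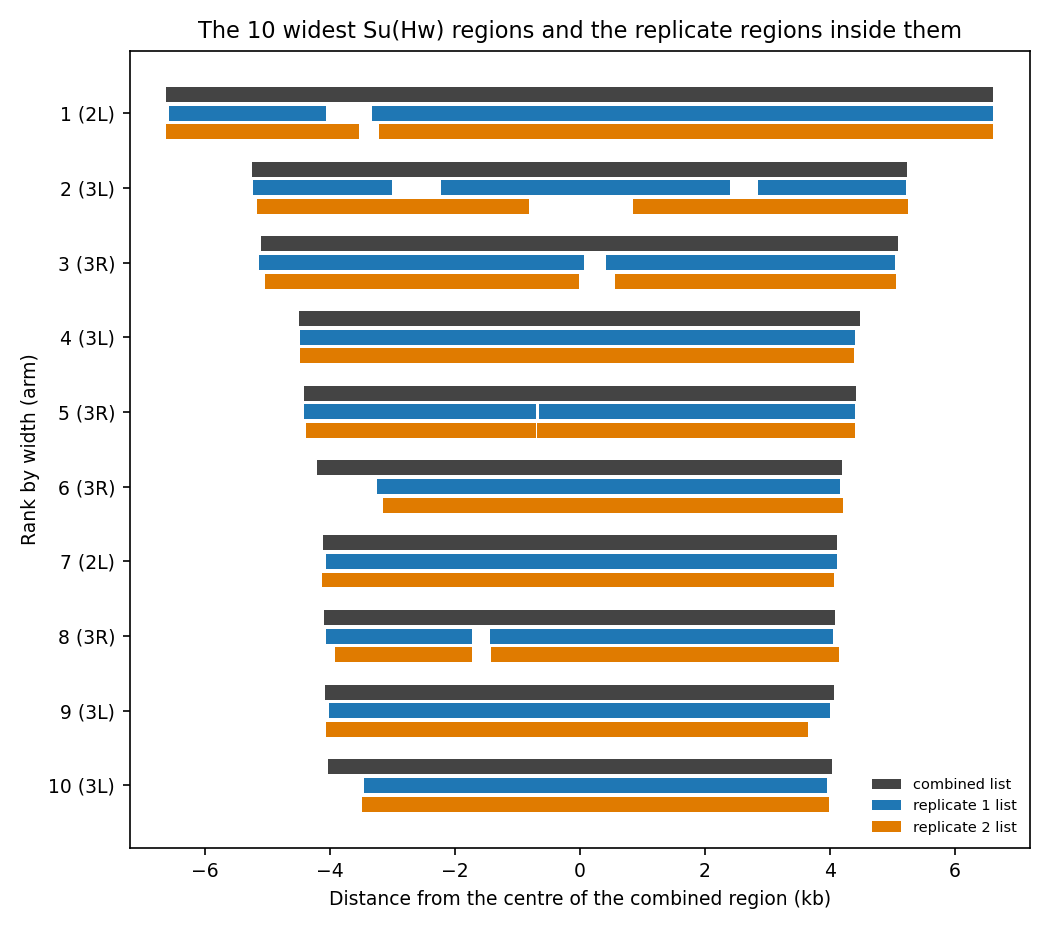
Extent of the 10 widest combined regions (dark bars) and of the replicate 1 (blue) and replicate 2 (orange) regions that overlap them, as distance from the centre of the combined region (kb), ordered by width from 13237 bp at the top to 8067 bp at the bottom. Ranks 1, 2, 3, 5 and 8 are broken in both replicate lists, and the other 5 are unbroken in both.

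Where both libraries split a wide region in the same number of parts, they placed the parts and ranked their strengths alike. There were 21 wide regions with 2 regions in each list. Choosing them by that number favours matching positions, so the agreement in placement follows partly from the choice. Midpoints of matching parts differed by a median of 50.3 bp and at most 247.5 bp. In 20 of the 21 the gaps of the replicates shared at least 1 bp, and the exception was 3R 27745860 to 27750922, with gaps of 0 and 2 bp. The same side held the higher score in both replicates in 18 of 21 (85.7%, exact interval 63.7% to 97.0%).

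The score of the right part minus that of the left ran from -2.22 to 2.26 in replicate 1 and from -1.94 to 2.21 in replicate 2. Across the 21 regions the differences had Pearson's r of 0.983 and Spearman's rho of 0.936. The points are regions of a shared pair of libraries, chosen from a list built on both, so no p is given. The steepest example was on 3L at 17243878 to 17251090 (7213 bp), where the left part scored 0.84 in replicate 1 and 0.91 in replicate 2 and the right part 3.10 and 3.12. The opposite slope was found on 3L at 9056002 to 9061310 (5309 bp), with 3.22 and 3.12 on the left and 1.00 and 1.18 on the right in replicates 1 and 2. At the end of 2L, 15668 to 20826 held parts of near-equal score, 2.16 and 2.33 in replicate 1 and 2.60 and 2.54 in replicate 2, and this was 1 of the 3 regions whose sides changed order. The others were 3R 6207262 to 6214702, with 1.17 and 0.90 in replicate 1 and 1.08 and 1.10 in replicate 2, and 3R 19787178 to 19791948, with 1.19 and 1.73 in replicate 1 and 1.82 and 1.61 in replicate 2. The examples of this paragraph were picked after their values were seen.

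**Figure D3:**
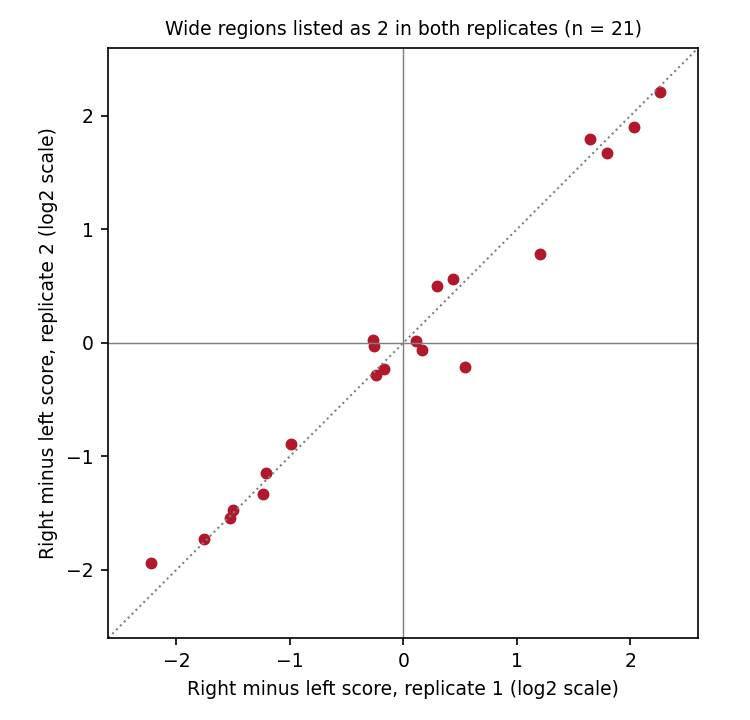
Score of the right part minus score of the left part (log2 scale) in replicate 1 (x axis) and replicate 2 (y axis) for the 21 wide regions listed as 2 regions in both replicates; each point is a region and the dotted line marks equal differences. Of the 21 points, 18 lie where both differences have the same sign, and they run along the dotted line from about -2 to 2.

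The parts of split regions resembled regions of the usual width. In replicate 1 the 81 parts had a median width of 2339 bp (quartiles 2104 and 2768 bp), and in replicate 2 the 72 parts had a median of 2460 bp (2180 and 3055 bp). Neighbouring parts had midpoints a median of 2694 bp apart in replicate 1 (41 pairs, from 1972 to 6959 bp). In replicate 2 the spacing was 2958 bp (36 pairs, from 1765 to 6770 bp). Gaps were short, with medians of 252 bp in replicate 1 and 200.5 bp in replicate 2 and maxima of 1188 and 1662 bp. Neighbouring parts differed in score by a median of 0.79 in replicate 1 and 1.02 in replicate 2. The parts of a split region thus often differed in strength.

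In 32 wide regions a single replicate saw the split. Of the 14 split in replicate 2 alone, 13 had a replicate 1 region that covered at least 50% of each part, as on 3L at 1849274 to 1855962. There replicate 2 listed scores of 3.50 and 1.21 with 1278 bp between them, and replicate 1 a single region of 6634 bp with score 1.64. The exception, 2L 18115670 to 18119470, had a replicate 1 region that covered 5.41% of the less covered part. Of the 18 split in replicate 1 alone, 9 had a replicate 2 region that covered at least 50% of each part. In another 2, 3L 5644128 to 5648674 and 3L 7424072 to 7428958, it covered 1.41% and 20.99% of the less covered part. In the other 7 the replicate 2 region touched only a single part, and the missed parts were weak, with replicate 1 scores from 0.20 to 0.60. At 1 of those 7, 3R 5914144 to 5917894, the weak replicate 1 region lay mainly in the next combined region and overlapped the wide region by its end. Counting only replicate regions with midpoints inside left the share split in both replicates at 5.87%, a share without 3R 5914144 to 5917894. Equal numbers in both replicates were found for 91.2% of wide regions by midpoints, against 90.9% by overlap. The counts split in a single replicate were not redone by midpoints.

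Among the 320 regions that were single in both lists, the combined region tended to be slightly wider than either replicate region. The combined width exceeded that of replicate 1 by a median of 128.5 bp (quartiles 35 and 613.5 bp) and that of replicate 2 by 178.5 bp (58 and 722.8 bp). Widths in the replicates had Pearson's r of 0.813 across these regions. In 188 of the 320 (58.8%, exact interval 53.1% to 64.2%) the region also reached 3500 bp in both replicate lists. In 34 it did so in replicate 1 alone and in 32 in replicate 2 alone. The remaining 66 (20.6%) were narrower than 3500 bp in both; their median width was 3693 bp when combined, 3028 bp by replicate 1 and 2765 bp by replicate 2. For these 66, being wide is a property of the combined list only.

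**Figure D4:**
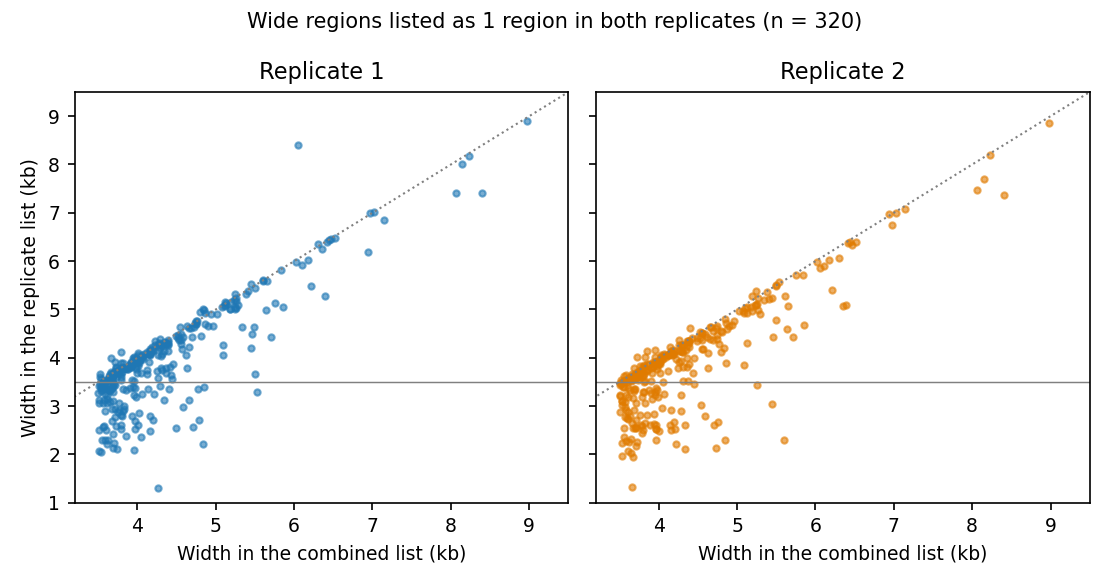
Width in the replicate list (kb) against width in the combined list (kb) for the 320 wide regions listed as a single region in both replicates, with replicate 1 on the left and replicate 2 on the right; the dotted line marks equal widths and the horizontal line 3.5 kb. Many points lie on the dotted line, and a second group falls below it, including 66 regions under 3.5 kb in both replicates.

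The uncovered part of a wide region usually lay at an edge. The replicate lists jointly covered 95% or more of 279 of the 375 regions (74.4%). In 24 (6.40%) a stretch of 1000 bp or more at 1 edge was in neither replicate list, and in 0 at both edges. The longest such edge, 3027 bp, belonged to 2L 245940 to 250952 (5013 bp). That region had the lowest combined score of all, 0.22, and was the member with no region in replicate 2. Its replicate 1 region, with score 0.44, covered 39.6% of it.

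Taking the replicate lists by themselves gave shorter sets of wide regions within the same stretches. Replicate 1 listed 254 regions of 3500 bp or more out of 2929 (8.67%), of which 249 (98.0%) overlapped a wide combined region. Replicate 2 listed 247 out of 2740 (9.01%), of which 244 (98.8%) did. Conversely, 247 of the 375 wide combined regions (65.9%) overlapped a replicate 1 region of that width and 241 (64.3%) a replicate 2 region. Nearly all wide regions of either replicate list thus overlapped a wide region of the combined list, which also held others.

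Wide regions carried high scores. Their median combined score was 2.08 (quartiles 1.49 and 2.56), against 0.78 (0.32 and 1.68) for the narrower regions of the same stretches. Scores above 3 were given to 49 of 375 wide regions (13.1%) and 93 of 3013 narrower ones (3.09%). With the regions of these stretches cut into 4 equal parts by score, 220 wide regions (58.7%) fell in the highest part, 111 in the next, 43 in the third and 1 in the lowest. The best replicate 1 region inside had a median score of 2.03 in wide (n = 375) and 1.03 in narrower regions (n = 2483). In replicate 2 these medians were 2.31 (n = 374) and 1.24 (n = 2322). Narrower regions with no region in that replicate list have no value here and were left out of these medians. Score and width come from the same region calls, so no test of this difference was run.

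Most of the rise of score with width lay below the limit of the rule. The median combined score was 0.29 at 1000 to 1500 bp, 0.23 at 1500 to 2000 bp, 1.01 at 2000 to 2500 bp and 2.06 at 2500 to 3000 bp. Above that it stayed between 1.76 and 2.50 in every class up to the widest. Spearman's rho between width and score was 0.832 over all 3388 regions of these stretches, and 0.159 over the 375 wide ones. Regions split in both replicates had a median combined score of 2.26 (n = 22), and regions single in both had 2.10 (n = 320). Those split in replicate 1 alone had 1.37 (n = 18) and those split in replicate 2 alone 1.85 (n = 14).

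**Figure D5:**
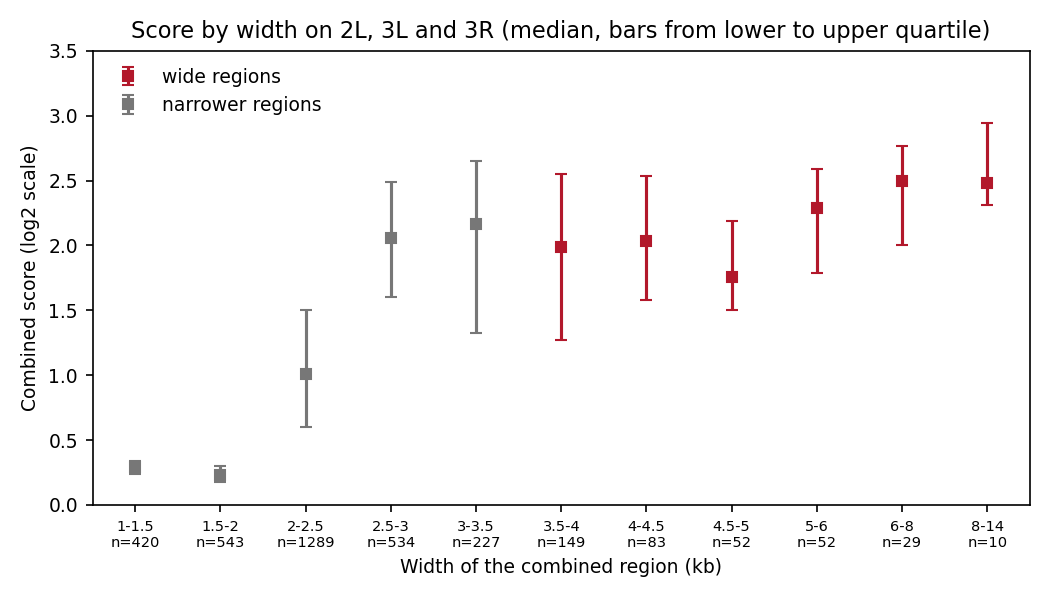
Median combined score (log2 scale, squares) with lower and upper quartiles (bars) by width of the combined region (kb) on 2L, 3L and 3R, for wide regions (red) and narrower regions (grey); the number of regions stands under each class. Medians climb to 2.06 at 2.5 to 3 kb and then stay between 1.76 and 2.50.

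The highest score of a wide region was 4.77, on 3R at 27282298 to 27286666 (4369 bp), with 4.91 in replicate 1 and 4.98 in replicate 2. On 3L, 2242226 to 2246016 (3791 bp) had a combined score of 4.37, from 4.44 in replicate 1 and 4.45 in replicate 2. Next came 3L 22447338 to 22451028 (3691 bp, 4.24), 3L 4838910 to 4842552 (3643 bp, 4.17) and 3R 3709480 to 3713738 (4259 bp, 4.03). All 5 were single in both replicates and no wider than 4369 bp.

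Weak wide regions were few: 9 of 375 (2.40%) had a combined score of 0.5 or less. Among narrower regions, 1808 of 3013 (60.0%) scored above 0.5. Just below the limit the lower quartile of score was also above 0.5, at 1.60 (2500 to 3000 bp) and 1.33 (3000 to 3500 bp). After the region on 2L at 245940 named above, the lowest wide regions were 3L 3822426 to 3826156 (3731 bp, combined score 0.37) and 2L 12009388 to 12013048 (3661 bp, 0.37). The 3L region scored 0.39 in replicate 1 and 0.38 in replicate 2 and was covered at 98.1% and 97.1%, so both libraries listed a broad weak stretch there. The 2L region was covered at 91.1% by replicate 1 and at 36.3% by replicate 2. On 3R, 12064748 to 12069268 (4521 bp, 0.38) was split in both replicates, with parts scoring 0.50 and 0.26 in replicate 1 and 0.58 and 0.30 in replicate 2.

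Scores of wide regions agreed between libraries within 0.5 for 291 of the 374 found in both (77.8%, exact interval 73.3% to 81.9%), taking the best replicate region inside. Of the narrower regions found in both, 1914 of 2178 (87.9%) did. Wide regions also had higher scores, so width was not separated from score level in this comparison. Replicate 2 scored over 1 higher at 32 wide regions (8.56%, 5.93% to 11.9%), and over all combined regions found in both the share was 5.06%. Replicate 1 scored over 1 higher at 0 of 374 (exact interval up to 0.981%), and over all such regions the share was 0.0231%. Separate normalization of the lists could shift these differences, and they were not tested. Across the 374 regions Pearson's r of the replicate scores was 0.850 and Spearman's rho 0.826, as a description over regions that share their libraries.

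Nearly every wide region had support from both libraries. Of 375, 374 (99.7%, exact interval 98.5% to 100.0%) overlapped a region of both replicate lists, against 72.3% (70.7% to 73.9%) of the narrower regions and 73.5% of all combined regions. This support was not particular to wide regions. It was 96.8% at 2000 to 2500 bp, 98.1% at 2500 to 3000 bp and 98.2% at 3000 to 3500 bp. The lower share of narrower regions came from those under 2000 bp, with 33.5% at 1500 to 2000 bp and 0.238% at 1000 to 1500 bp. The combined list is built on the same libraries, and wide regions also had higher scores, so width was not separated from score in this count.

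Wide regions were spread along all 3 arms. There were 105 on 2L, 123 on 3L and 147 on 3R, or 5.00 per Mb (95% exact Poisson interval 4.09 to 6.05), 5.46 (4.53 to 6.51) and 5.83 (4.92 to 6.85) of the stretches used. They made up 10.5% of the regions on 2L, 11.8% on 3L and 10.9% on 3R, with intervals that overlap. Whole arms outside the rule gave like shares of regions of 3500 bp or more, 10.3% on X and 11.8% on 2R. Median widths were 4199 bp on 2L, 4159 bp on 3L and 4163 bp on 3R. Splits in at least 1 replicate were found in 12 wide regions on 2L, 18 on 3L and 24 on 3R. No test between arms was run. In 66 complete 1 Mb windows the number of wide regions ran from 1 to 11 with a median of 5, and 0 windows held none. The highest count of 11 was reached on 2L from 0 to 1 Mb and on 3L from 1 to 2 Mb, windows picked after their counts were seen.

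Wide regions often had close neighbours. The median gap to the nearest other combined region was 3859 bp for wide regions (quartiles 1340 and 8364 bp) and 4669 bp for narrower ones (1767 and 11155 bp). Another combined region lay within 5000 bp of 221 wide regions (58.9%, exact interval 53.8% to 64.0%) and of 1554 narrower ones (51.6%, 49.8% to 53.4%). Midpoint distances went the other way, with medians of 7341 bp for wide and 6996 bp for narrower regions. A gap leaves out the region's own width and a midpoint distance takes in part of it, so both measures depend on width. A cause of either difference was not tested.

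Some wide regions lay near each other. Those no more than 10 kb apart were joined, whether or not narrower regions lay between them. This gave 35 pairs, 7 groups of 3 and 1 group of 4, while 280 stood alone. The group of 4 lay on 3L from 13556478 to 13585508, a stretch of 29031 bp, with combined scores between 0.87 and 1.48. A compact group of 3 lay on 2L from 3747592 to 3764436 (16845 bp, combined scores 2.42 to 2.97). The closest pair, on 3R at 20586628 to 20591716 and 20591738 to 20595958, was parted by 21 bp, and replicate 2 split the left region whereas replicate 1 split the right one. These groups were picked out after their values were seen.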

How the data were processed

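Su(Hw) was mapped by ChIP-seq in 2 ChIP samples, with 2 inputs that carry the same replicate numbers, per the labels. Per the submitters' processing notes, Bowtie 0.12.7 was used. The caller of regions, its cut-off and the fragment length are not stated. The 3 deposited lists hold regions in FlyBase release 5, per the file headers, with 1 list per ChIP replicate and a combined list. Scores are enrichments on a log2 scale, made by the authors. The base was read from the values: exact differences of 1 (tolerance 1e-11) joined 44 score pairs of the combined list, 93 of replicate 1 and 73 of replicate 2, and differences of the natural or decimal logarithm of 2 joined 0. Regions marked as depleted (5, 1 and 0) were left out.

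Replicate regions were counted inside a wide region where they overlapped by at least 1 bp. Counts were checked with bedtools 2.31.1 (the same for all 375 regions in both lists) and tested on 2000 simulated regions, all counted right. The simulated parts lay wholly inside their regions, so the simulation did not cover parts that cross an edge. Intervals are exact binomial or Poisson intervals at 95% and cover counting of regions only. Depth is unknown. The named regions were the 10 widest, the 5 highest and 3 lowest by combined score, those with 3 or more or with 0 regions in a replicate, and the 3 on each side of the limit. Members and lists were chosen with earlier results of these data known. Planned work on sequence and annotation was not run, for want of a release 5 reference (the gene table used here is release 6). Python 3.11.15, numpy 2.4.6, pandas 2.3.3, scipy 1.17.1 and matplotlib 3.10.9 were used. Alternatives covered the width limit, the overlap rule, the better-scoring 50% of each list and each replicate alone.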

Additional observations from a re-analysis of the deposited data

How the results depend on the processing

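No paired analysis was possible because a shared replicate number links only a ChIP sample with an input, and no input values were used here. Of 29 alternatives, 9 stayed within the interval of the main value or, for the number of wide regions, within 1.5 times of it, and 20 moved. The number of wide regions was 602 at a minimum of 3000 bp, 226 at 4000 bp and 91 at 5000 bp; with the rule applied to 1 replicate list, an alternative chosen after seeing the data, it was 247 to 254. The share split in both replicates was 3.65% at 3000 bp, 9.73% at 4000 bp, 18.7% at 5000 bp, 2.13% for replicate regions wholly inside and 2.67% with the better-scoring 50% of each list, where fewer regions were counted. Leaving out a replicate, so that 1 list had to show the split, gave 9.60% to 10.7%. Equal numbers in both replicates were found for 81.3% at 5000 bp. The share found in both replicates was 77.3% with the better-scoring 50%, by construction, and 99.7% to 100% with 1 replicate left out. The difference in median score, wide minus narrower regions, was 1.30; it was 1.42 at 3000 bp, 1.44 at 5000 bp, and 1.00 to 1.07 by the scores of a single replicate. The median gap to the nearest region was 4883 bp with neighbours listed in both replicates, and 7341 bp between midpoints, by construction; with midpoints, wide regions no longer had the shorter median (narrower regions 6996 bp).

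Depth is unknown, so whether a region left unsplit by 1 library would split with more reads was not tested. The sources used here give neither the zero point of the scores nor the region caller, so widths are those of the authors' calls.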

Other observations

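Some wide combined regions spanned replicate regions that lay apart, whereas some near neighbours were separate regions in the combined list. In 27 of the 375 wide regions an inner stretch of at least 1 bp was in neither replicate list, and in 5 it was longer than 500 bp. The longest was 1188 bp, in 3R 6207262 to 6214702 (7441 bp), where the replicates listed 2 regions each with gaps of 1188 and 1372 bp. The others lay in 3R 16157054 to 16164572 (1041 bp uncovered), 3R 23329602 to 23335204 (998 bp), 2L 4817216 to 4822128 (760 bp) and 3R 12064748 to 12069268 (723 bp). In contrast, 13 wide regions had a separate combined region within 100 bp and 56 had one within 500 bp. At 3R 7161096 to 7167564 and 3L 22314274 to 22320328, a single replicate 1 region (7848 bp and 8405 bp wide) ran across the wide region and a separate combined neighbour. How the authors made the combined list from the libraries is not stated, and any joining of regions was not tested.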
